A study of Mus musculus with 2 samples.

Results

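The Zic genes encode zinc finger transcription factors named for their expression in the cerebellum, and 4 of them, Zic1, Zic2, Zic4 and Zic5, were followed through nuclei of the newborn mouse cerebellum. They were taken by gene symbol from the 32285 genes of the count tables, with no use of any measured value, and each symbol matched 1 row. The data were single-nucleus 3′ RNA-seq counts from cerebella collected at postnatal day 1 (P1). The library labelled cKO came from Nestin-cre;Tox3f/f mice, in which both copies of Tox3 carry loxP sites and Cre is driven in neural precursors, so that most neurons and glia descend from cells with Cre while microglia and blood vessels do not. The control library came from Cre-negative littermates with the genotype label Tox3f/f, although its library name also allows Tox3f/+. Each library pooled 12 cerebella, so every group was 1 sample, differences between animals could not be seen, and no test between genotypes was possible.

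ZIC proteins bind DNA through a cluster of C2H2 zinc fingers related to those of the GLI and GLIS families, and they can act together with GLI proteins in Hedgehog signalling. The genes sit in head-to-head pairs. In the cerebellum Zic1 is known from granule cell progenitors, and loss of Zic1 and Zic4 together leaves a small cerebellum with altered folding. Zic2 is required for forebrain midline formation, and Zic5, its neighbour, takes part in neural crest and neural tube development.

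In GRCm38 (mm10) with the GENCODE vM21 annotation, Zic1 (ENSMUSG00000032368) occupies chr9:91358058-91365810 on the minus strand, and Zic4 (ENSMUSG00000036972) occupies chr9:91362413-91389348 on the plus strand. Their gene bodies overlap by 3398 bases on opposite strands, of which 60 are exonic in both. Zic5 (ENSMUSG00000041703, chr14:122456795-122465677, minus strand) and Zic2 (ENSMUSG00000061524, chr14:122475435-122479852, plus strand) are separated by 9757 bases. The stretch in which the 4 genes are most alike is shown because reads from it could be counted for the wrong member. It is 90 coding bases in the first coding exon, in the zinc finger part, given 5′ to 3′ on the coding strand from GRCm38, with capitals for the 71 bases that are the same in all 4 genes. The windows are chr9:91364157-91364246 (minus) for Zic1, chr14:122476537-122476626 (plus) for Zic2, chr9:91379192-91379281 (plus) for Zic4 and chr14:122464013-122464102 (minus) for Zic5.
Zic1: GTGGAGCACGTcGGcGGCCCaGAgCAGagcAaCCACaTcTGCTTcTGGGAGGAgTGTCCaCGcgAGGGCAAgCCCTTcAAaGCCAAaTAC
Zic2: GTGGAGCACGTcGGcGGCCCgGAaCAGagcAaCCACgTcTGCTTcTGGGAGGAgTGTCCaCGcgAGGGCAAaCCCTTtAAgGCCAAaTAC
Zic4: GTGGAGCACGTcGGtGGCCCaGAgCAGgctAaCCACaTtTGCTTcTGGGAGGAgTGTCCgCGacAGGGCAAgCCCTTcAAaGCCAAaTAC
Zic5: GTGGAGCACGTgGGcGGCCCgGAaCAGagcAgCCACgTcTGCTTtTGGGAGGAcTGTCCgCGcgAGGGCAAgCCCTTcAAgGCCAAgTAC
Zic1 and Zic2 shared 84 of the 90 bases, Zic1 and Zic4 82, Zic1 and Zic5 80, Zic2 and Zic5 82, Zic2 and Zic4 76, and Zic4 and Zic5 74. Over whole transcripts, Zic1 and Zic2 had 9 words of 31 bases in common on the same strand, Zic1 and Zic4 had 13, and the other 4 pairs had 0. Words were taken at every start position, so overlapping words of a longer shared stretch are each counted. In the last 500 bases of the transcripts, where 3′ reads fall, no pair shared a word of 31 bases on the same strand. Zic1 and Zic4 shared 33 such words there on opposite strands, and the 3′ assay reads the strand.

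The control library held 4857 barcodes and 22325208 unique molecular identifiers (UMIs, each a counted RNA molecule), and the library labelled cKO held 6946 barcodes and 33726533 UMIs. After doublets and nuclei rich in mitochondrial RNA were removed, 4667 and 6555 nuclei remained, with medians of 3979 and 4026 UMIs, and 9 barcodes occurred in both libraries. Tox3 UMIs do not check the genotype here, since 3′ counts can come from outside a deleted exon: scaled to 1000000 UMIs (CPM), Tox3 stood at 103.9 in the control nuclei and at 118 in the cKO nuclei. Classes were rebuilt by gating nuclei on marker genes, none of them a Zic gene, so a class name below means nuclei carrying those markers. In control and cKO, respectively, 1514 and 1609 nuclei passed as granule lineage (Pax6, Neurod1, Cntn2 and others), 295 and 743 as astroglia, 326 and 739 as GABAergic interneurons, 218 and 630 as Purkinje cells, 145 and 173 as unipolar brush cells and 55 and 156 as microglia. Another 975 and 1440 nuclei were left unassigned, and 177 and 339 assigned nuclei lay near an edge of the gate. The intervals given below are exact, at 95%, and cover counting error only.

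Among the 8 classes with at least 50 nuclei in both libraries, Zic1 in control was highest in astroglia, unipolar brush cells and the granule lineage, at intermediate level in interneurons, and lowest in Purkinje cells. It stood at 573 CPM in astroglia (740 UMIs), 547 CPM in unipolar brush cells (439 UMIs) and 496 CPM in the granule lineage (interval 480.1 to 511.5, 3851 UMIs). The granule lineage was at 0.866 times the level of astroglia (interval 0.8 to 0.938), and within 4000 to 8000 UMIs that ratio was 0.952 with an interval (0.86 to 1.06) that spanned 1. Zic1 was at 270.1 CPM in GABAergic interneurons and at 79.4 CPM in Purkinje cells, the principal neurons of the cerebellar cortex. Microglia, which do not arise from the neural tube, still held 142 CPM on 28 UMIs, beside the oligodendrocyte lineage at 132 CPM and glutamatergic cerebellar nuclei neurons at 103.1 CPM. The order of these low classes depends on the scale, because their nuclei differ in depth. Counted per nucleus, Zic1 gave 0.509 UMIs in control microglia, 0.612 in the oligodendrocyte lineage, 0.78 in Purkinje cells and 1.0 in cerebellar nuclei neurons, against 1.51 in interneurons and 2.54 in the granule lineage. How much of the lower values is free RNA was not tested. Microglia are not a clean reference either, since genes of the fibroblast and mural list stood at 396 CPM in that class in control and at 632.5 CPM in cKO, against 49.9 and 13.5 CPM in granule nuclei, with a median of 0 UMIs per microglial nucleus. In the library labelled cKO the order of the upper classes was different, with Zic1 at 593 CPM in the granule lineage, 518 CPM in astroglia and 454 CPM in unipolar brush cells, and the granule lineage 1.15 times above astroglia (interval 1.08 to 1.22), also within 4000 to 8000 UMIs (1.21, interval 1.1 to 1.32).

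**Figure D1:**
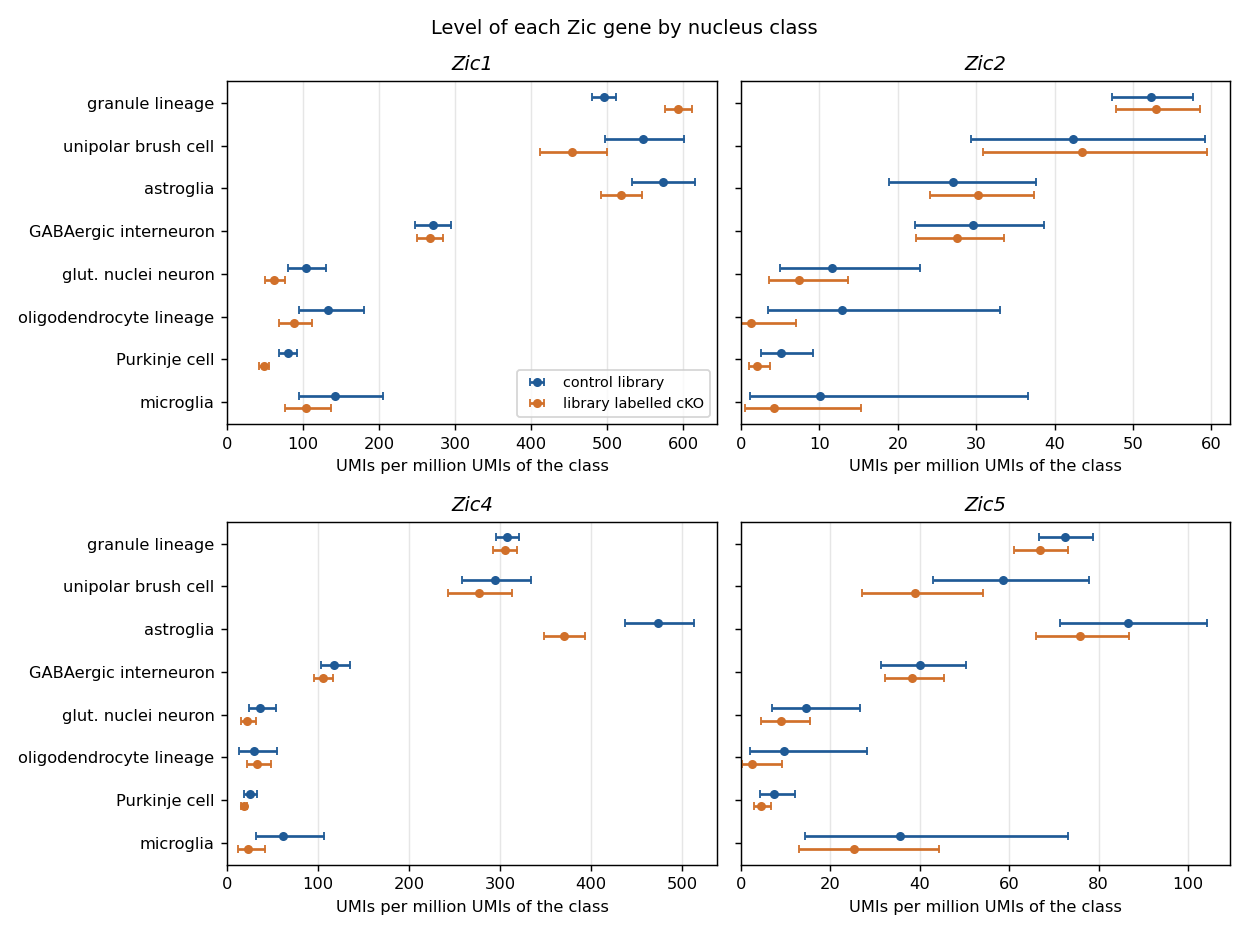
Level of each Zic gene in CPM, by nucleus class, with 1 point per library (control and the library labelled cKO) and bars for exact 95% counting intervals. Zic1 stood at 496 CPM in granule nuclei of control and 593 CPM in those of cKO, Zic2 had its highest points of those shown in the granule lineage, Zic4 was highest of the 8 classes shown in astroglia (474 and 371 CPM), and Purkinje cells were near the left edge of every panel.

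Zic4, the partner of Zic1 on chromosome 9, was more strongly weighted towards astroglia. It stood at 474 CPM in astroglia against 308 CPM in the granule lineage of the control library, a granule to astroglia ratio of 0.65 (interval 0.594 to 0.711). Unipolar brush cells, at 294 CPM, were within counting error of the granule lineage. Interneurons stood at 118 CPM, microglia at 60.9 CPM and Purkinje cells at 24.8 CPM. In the library labelled cKO the order was the same, with astroglia at 371 CPM, the granule lineage at 305 CPM (0.824 of astroglia, interval 0.765 to 0.888) and interneurons at 106 CPM. Among cKO nuclei of 2000 to 4000 UMIs alone, the Zic4 ratio of granule lineage to astroglia was 0.96 and its interval (0.862 to 1.07) spanned 1.

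Zic2 had the opposite weighting. It stood at 52.3 CPM in the control granule lineage (406 UMIs) and at 27.1 CPM in astroglia (35 UMIs), 1.93 times higher in the granule lineage (interval 1.36 to 2.81). Its level was 42.4 CPM in unipolar brush cells, 29.6 CPM in interneurons, 10.2 CPM in microglia (2 UMIs) and 5.14 CPM in Purkinje cells (11 UMIs). Purkinje cells were at 0.507 of microglia with an interval (0.11 to 4.7) that spanned 1, so these classes are not ordered. Astroglia and interneurons, neighbours in this order, did not differ beyond counting error. In the library labelled cKO Zic2 was at 52.97 CPM in the granule lineage and 30.2 CPM in astroglia, so the same weighting was present in both libraries. Among nuclei of 4000 to 8000 UMIs alone, Zic2 was 2.12 times higher in granule nuclei than in astroglia in control (interval 1.38 to 3.41) and 1.49 times in cKO (interval 1.08 to 2.1).

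Zic5, which lies next to Zic2, did not share the weighting of its neighbour. It stood at 86.7 CPM in control astroglia (112 UMIs), 72.6 CPM in the granule lineage (564 UMIs), 58.6 CPM in unipolar brush cells and 40.1 CPM in interneurons. Granule lineage and astroglia did not differ beyond counting error (ratio 0.838, interval 0.683 to 1.03). Purkinje cells were at 7.48 CPM and microglia at 35.5 CPM on 7 UMIs. The number of Zic5 UMIs for each Zic2 UMI was 1.39 in the control granule lineage and 3.2 in control astroglia, and 1.26 and 2.51 in the library labelled cKO. For the other pair, Zic1 UMIs for each Zic4 UMI were 1.61 in the granule lineage, 1.21 in astroglia and 2.29 in interneurons of the control library. Both ratios are read across classes only, since UMI counts of different genes do not give their relative abundance.

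Within the granule lineage, dividing nuclei were compared with those called postmitotic. The latter are all granule nuclei that passed neither the mitotic gate nor that for Gli1, Gli2 or Atoh1, with no marker of their own required. The 2 genes of the chromosome 9 pair differed between dividing and postmitotic nuclei, and so did Zic5 in control. In control, Zic4 was at 381 CPM in dividing granule nuclei, which carry Mki67, Top2a and other mitotic genes, and at 291.5 CPM in postmitotic ones, a ratio of 1.31. Zic1 was at 410.1 CPM in dividing and 512 CPM in postmitotic nuclei, a ratio of 0.801. The number of Zic1 UMIs for each Zic4 UMI was therefore 1.08 (interval 0.926 to 1.25) in dividing nuclei, 1.15 in nuclei carrying Gli1, Gli2 or Atoh1, and 1.76 (interval 1.66 to 1.86) in postmitotic nuclei. In the library labelled cKO the values were 1.44 (interval 1.14 to 1.81) in dividing and 1.98 in postmitotic nuclei. Dividing nuclei thus had the lower ratio in both libraries. In cKO, Zic4 was again higher in dividing than in postmitotic nuclei (1.51, interval 1.26 to 1.81), while Zic1 was not lower there (1.09, interval 0.941 to 1.27). Among nuclei of 4000 to 8000 UMIs in control, Zic4 was 1.4 times higher in dividing than in postmitotic nuclei (interval 1.21 to 1.62) and Zic1 0.776 times as high (interval 0.674 to 0.89). In the same range of the cKO library, on 33 dividing nuclei, Zic4 was at 1.21 (interval 0.904 to 1.6) and Zic1 at 1.09 (interval 0.88 to 1.33), with both intervals spanning 1. In cKO nuclei of 2000 to 4000 UMIs, on 28 dividing nuclei, Zic4 was at 1.84 with an interval (1.39 to 2.41) above 1 and Zic1 at 1.0 (interval 0.759 to 1.29). In control nuclei of that range the ratios were 1.39 (interval 1.07 to 1.78) for Zic4 and 0.747 (interval 0.572 to 0.962) for Zic1. Zic5 was also higher in dividing nuclei of control (1.32, interval 1.03 to 1.68), and at 1.45 (interval 1.08 to 1.92) within 4000 to 8000 UMIs. In cKO nuclei of that range it was at 0.371 (interval 0.1 to 0.961), on 4 UMIs in dividing nuclei. Within 2000 to 4000 UMIs its intervals spanned 1 in both libraries. The intervals of Zic2 over the whole classes spanned 1 in control (0.808) and cKO (1.18).

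**Figure D2:**
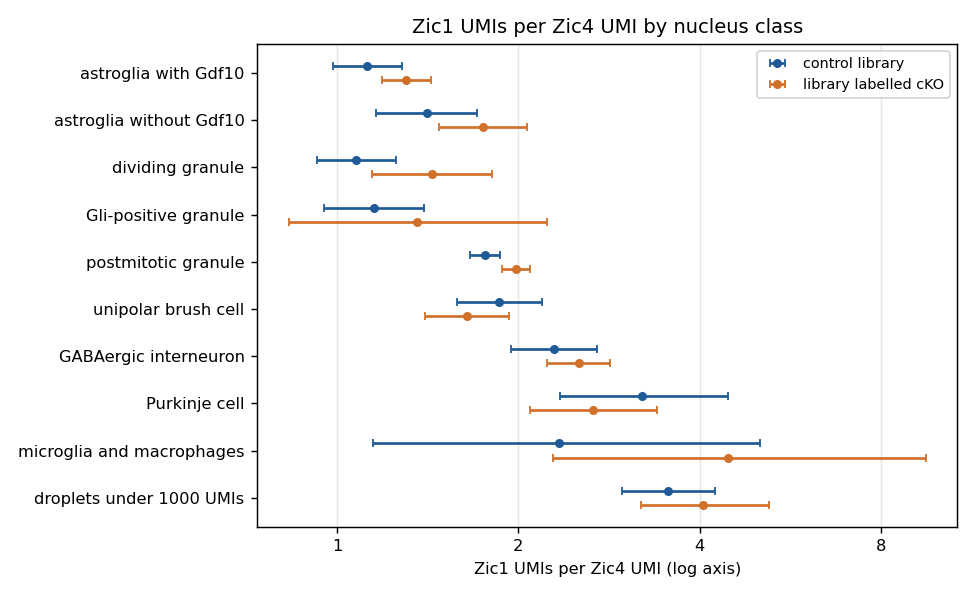
Number of Zic1 UMIs for each Zic4 UMI, on a log axis, by nucleus class and for droplets under 1000 UMIs, in the control library and the library labelled cKO, with bars for 95% counting intervals. Dividing granule nuclei (1.08 and 1.44) lay to the left of postmitotic ones (1.76 and 1.98) in both libraries, and droplets under 1000 UMIs lay at 3.54 and 4.06.

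Postmitotic granule nuclei were divided further by Cntn2, a cell adhesion molecule of newly postmitotic granule cells, and by Svep1 and Grm4, markers of more mature ones. In control, Zic1 stood at 599 CPM where only Cntn2 was seen and at 463 CPM where only Svep1 or Grm4 was seen, a ratio of 1.29. Zic4 stood at 345 and 251 CPM, a ratio of 1.38. The library labelled cKO gave ratios of 1.32 for Zic1 and 1.63 for Zic4. Both genes were thus higher in the Cntn2 nuclei of either library, while the corresponding ratios of Zic2, 1.14 and 0.774, and of Zic5, 0.845 and 1.01, lay on both sides of 1. Nuclei with Cntn2 alone held fewer UMIs, and the ratios were therefore also taken within 4000 to 8000 UMIs. There Zic1 was 1.24 times higher in the Cntn2 nuclei of control (interval 1.11 to 1.39) and 1.25 times in cKO (interval 1.09 to 1.43), and Zic4 was 1.25 times higher in control (interval 1.07 to 1.47) and 1.78 times in cKO (interval 1.49 to 2.11). Within 2000 to 4000 UMIs the Zic4 ratios were 1.43 and 1.33 and the cKO ratio of Zic1 was 1.22, with intervals above 1, but the control ratio of Zic1 was 1.1 with an interval (0.907 to 1.34) that spanned 1.

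Astroglia were divided by Gdf10, a marker of Bergmann glia that is also in the marker list of the astroglia gate. Without Gdf10, 13 of 114 control and 59 of 237 cKO nuclei lay near an edge of the gate. With it the numbers were 5 of 181 and 21 of 506. Zic4 was at 525 CPM with a Gdf10 UMI and at 387 CPM without one in control, a ratio of 1.36, and at 417.5 and 263 CPM in cKO, a ratio of 1.59. Zic1 was at 589 and 545 CPM in control and at 544 and 459 CPM in cKO. Zic5 was at 94.3 and 73.6 CPM in control and at 93.4 and 35.5 CPM in cKO. Zic4 was thus higher with Gdf10 in both libraries, while for Zic1 (1.08 in control, 1.19 in cKO) and Zic5 (1.28 and 2.63) the interval lay above 1 in cKO and spanned 1 in control. Within 4000 to 8000 UMIs the ratio for Zic4 was 1.33 (interval 1.08 to 1.66) in control and 1.66 (interval 1.29 to 2.15) in cKO, whereas the intervals of Zic1 reached below 1 in both libraries (1.1, interval 0.904 to 1.34, and 1.16, interval 0.951 to 1.42). Within 2000 to 4000 UMIs the Zic4 ratios were 1.4 and 1.57 with intervals above 1, and Zic1 was at 1.15 (interval 0.877 to 1.5) in control and 1.19 (interval 1.02 to 1.38) in cKO. Zic2 had only 11 and 16 UMIs in astroglia without Gdf10, too few to compare.

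GABAergic interneurons also varied in Zic1. It stood at 183 CPM in control nuclei in which only Htr7 was seen, at 255 CPM in those with only C1ql3 or Tll2 and at 328 CPM in those with none of these 3 genes. The library labelled cKO gave 187, 229 and 339 CPM in the same order. Zic4 followed, at 54.6, 110 and 162 CPM in control and at 40.8, 113 and 128 CPM in cKO. Interneuron nuclei with Htr7 alone thus had the lowest of the 3 values for both genes in both libraries, on 57 and 119 UMIs of Zic1 and 17 and 26 of Zic4. Nuclei with C1ql3 or Tll2 stood 1.39 times above them for Zic1 in control (interval 1.03 to 1.91). For Zic4 the ratios were 2.01 and 2.77, with intervals above 1, whereas for Zic1 in cKO the ratio of 1.23 was within counting error (interval 0.992 to 1.52). Against microglia, Htr7 nuclei were at 1.29 (interval 0.807 to 2.11) in control and 1.8 (interval 1.28 to 2.57) in cKO for Zic1. For Zic4 they were at 0.898 (interval 0.404 to 2.06) and 1.75 (interval 0.837 to 3.93). Median depths of the 3 groups were 4710, 6254 and 4392 UMIs in control, and they were not compared within depth ranges.

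Shares of nuclei with a UMI depend on depth, so each nucleus was thinned to 1000 UMIs for comparison. Thinned, a Zic1 UMI was found in 39.4% of control granule nuclei and 44.96% of cKO granule nuclei. Without thinning, 87.2% and 89.7% of these nuclei held one, at a median depth of 4624 UMIs in control and 4140 in cKO. Microglia, which should lack Zic1, gave 13.6% and 9.95% thinned, and 34.5% and 23.1% without thinning (median depth 3100 and 2600 UMIs), while Purkinje cells gave 7.13% and 4.49% thinned and 45.4% and 29.8% without thinning (median depth 9148 and 7977 UMIs). Purkinje cells were thus below microglia at equal depth and above them per whole nucleus, and no order between these classes is read from the shares. For the other members, thinned shares in the granule lineage were 26.7% and 26.5% for Zic4, 5.04% and 5.36% for Zic2 and 7.26% and 6.6% for Zic5, and unthinned shares were 71.99% and 68.3%, 22.7% and 21.1%, and 30.05% and 24.4%. Zic1 reached 18 UMIs in a single control granule nucleus and 15 in a cKO one. Granule nuclei with 0 UMIs of Zic1 made up 12.8% in control and 10.3% in cKO, and those with 5 or more made up 14.9% and 15.8%.

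**Figure D3:**
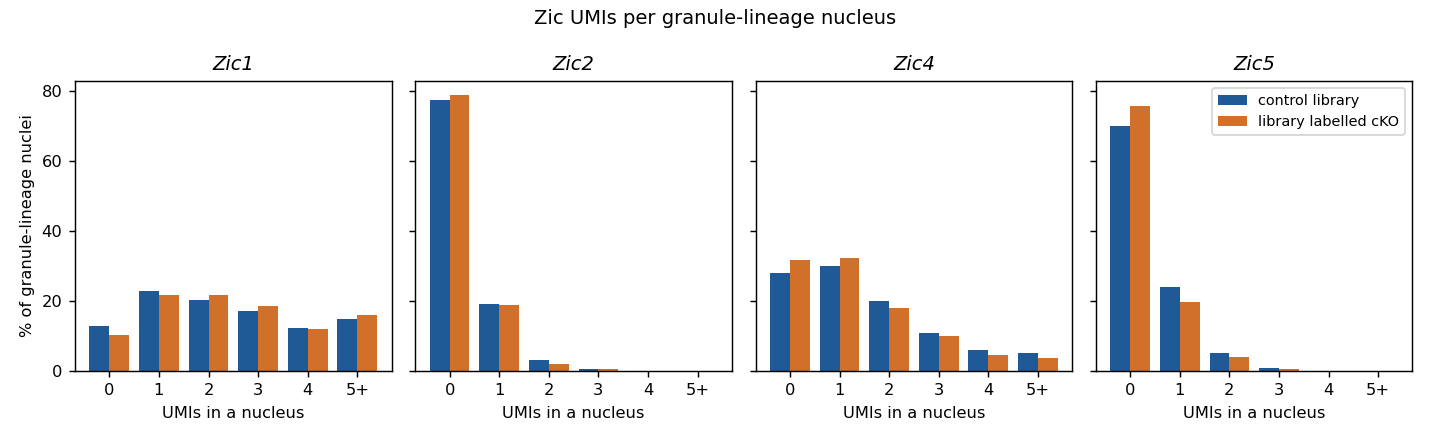
Percent of granule-lineage nuclei (1514 in control, 1609 in the library labelled cKO) by the number of UMIs of each Zic gene found in the nucleus, with 5 or more in the last bar. Nuclei with 0 UMIs made up 12.8% and 10.3% for Zic1, and most nuclei held 0 UMIs of Zic2 or Zic5.

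Members were found together in granule nuclei in numbers close to what their separate shares at each depth would give. The intervals below treat the joint count as Poisson. For genes found in most nuclei they are wider than fixed shares allow, so an interval that includes 1 does not show independence. Of the 1514 control granule nuclei, 956 (63.1%) held UMIs of both Zic1 and Zic4, against 956.3 expected within 10 strata of depth. In cKO 1002 nuclei held both, against 988 expected. Zic2 and Zic5 were seen together in 107 control granule nuclei against 113 expected. Of the control granule nuclei, 43 held none of the 4 members, 284 held 1, 714 held 2, 395 held 3 and 78 held all 4. Among all pairs tried in 5 classes of each library, 1 had such an interval that excluded 1, Zic1 and Zic4 in GABAergic interneurons of cKO. They were found together in 186 nuclei against 157.6 expected (1.18, interval 1.02 to 1.36). In cKO astroglia Zic1 and Zic4 were found together in 401 nuclei against 374.1 expected (1.07, interval 0.969 to 1.18). Whether that excess goes beyond what fixed shares allow was not tested. In control astroglia Zic2 and Zic5 were seen together in 18 nuclei against 11.3 expected, a ratio of 1.6 whose interval (0.947 to 2.53) included 1.

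The next comparison set the library labelled cKO against control. Over all kept nuclei the 4 members were lower in the library labelled cKO. Zic1 went from 390.1 to 330.3 CPM, a ratio of 0.847 (interval 0.822 to 0.872), and Zic4 from 228 to 173 CPM, a ratio of 0.757 (interval 0.728 to 0.788). Zic2 went from 35.9 to 27.4 CPM, a ratio of 0.765 (interval 0.691 to 0.846), and Zic5 from 53.9 to 38.7 CPM, a ratio of 0.718 (interval 0.661 to 0.781). None of the 4 passed a 1.5-fold difference in either direction, which 7.14% of the 20220 genes with at least 20 UMIs passed upwards and 7.76% downwards. Intervals lay above 1 for 16.8% of these genes and below 1, as for the 4 members, for 20.5%. In such sums, fewer nuclei of a class and less RNA per nucleus cannot be told apart.

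The classes did not take the same share of both libraries. The granule lineage held 37.9% of the UMIs of kept nuclei in control and 23.9% in cKO, and Purkinje cells, the class with the lowest Zic1 level, held 10.4% and 17.5%. When the control level of every class was combined with the class shares of the library labelled cKO, Zic1 came to 339.9 CPM, 0.871 of its control value, and Zic2, Zic4 and Zic5 came to 0.845, 0.864 and 0.864 of theirs. When instead the cKO level of every class was combined with the control shares, the values were 1.03 of control for Zic1, 0.972 for Zic2, 0.921 for Zic4 and 0.856 for Zic5. The shares rest on pooled tissue and on the gate, and how far dissection or nuclei recovery set them was not tested.

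Within the granule lineage Zic1 was higher in the library labelled cKO, and the intervals of the other 3 members spanned 1. Its level was 496 CPM in control nuclei and 593 CPM (interval 576 to 611) in those of cKO, which gave a ratio of 1.2 (interval 1.15 to 1.25). Zic4 went from 308 to 305 CPM (ratio 0.991, interval 0.935 to 1.05), Zic2 from 52.3 to 52.97 CPM (ratio 1.01, interval 0.879 to 1.17) and Zic5 from 72.6 to 66.8 CPM (ratio 0.921, interval 0.814 to 1.04). None of the 4 passed 1.5-fold, against 4.99% of 15821 genes upwards and 11.8% downwards. Intervals lay above 1 for 9.76% of these genes, Zic1 among them, and below 1 for 19.3%, and the ratio of Zic1 exceeded that of 84.5% of the genes. In nuclei of 2000 to 4000, 4000 to 8000 and at least 8000 UMIs, taken separately, the Zic1 ratio was 1.19, 1.14 and 1.31, with every interval above 1. Zic4 was lower in nuclei of 4000 to 8000 UMIs alone (0.91, interval 0.841 to 0.984), while its intervals in the shallower and the deeper nuclei spanned 1. Zic1 UMIs for each Zic4 UMI went from 1.61 to 1.94 over the class.

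**Figure D4:**
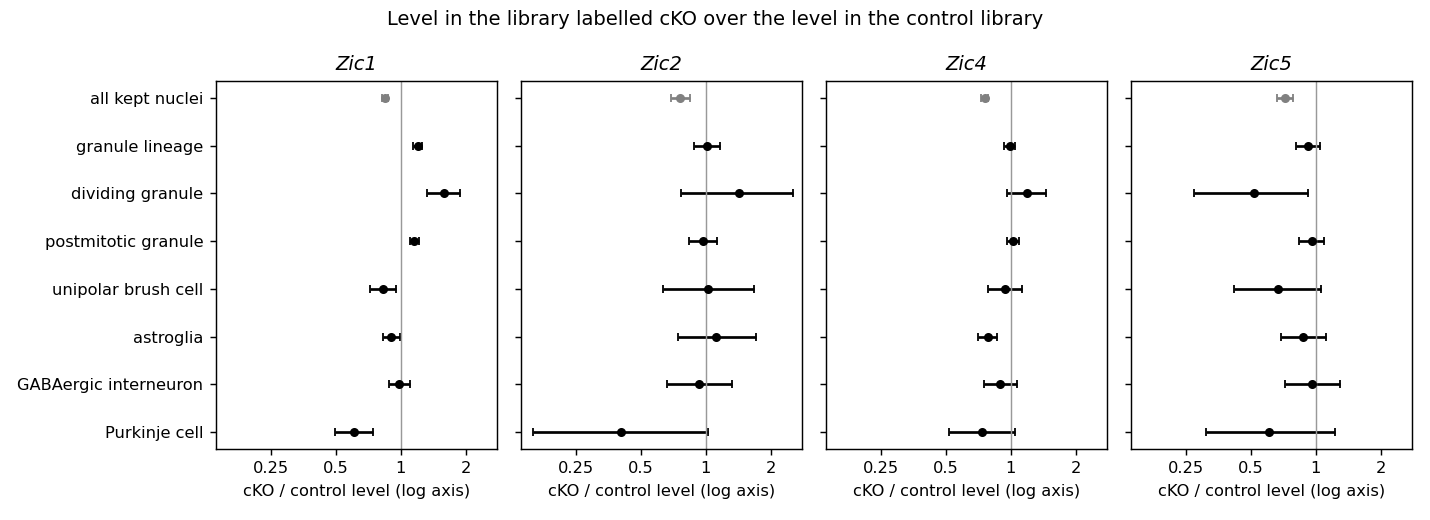
Ratio of the level in the library labelled cKO to the level in control, on a log axis, for each Zic gene over all kept nuclei (grey) and within classes (black), with bars for 95% counting intervals and a line at 1. The 4 grey points lay between 0.718 and 0.847, whereas within the granule lineage Zic1 lay at 1.2 and the intervals of the other members crossed the line.

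The higher Zic1 level of the library labelled cKO was found in several granule states. In postmitotic nuclei it was 512 and 593 CPM (ratio 1.16, interval 1.11 to 1.21), in those with Cntn2 alone 599 and 716 CPM (ratio 1.19, interval 1.08 to 1.32), and in those with Svep1 or Grm4 alone 463 and 541.5 CPM (ratio 1.17, interval 1.09 to 1.25). In nuclei carrying Gli1, Gli2 or Atoh1 it was 444 and 467 CPM, a ratio of 1.05 whose interval (0.739 to 1.47) spanned 1, on 42 UMIs in cKO. Over all tested genes, intervals lay above 1 for 8.36% and below 1 for 11.5% in postmitotic nuclei, for 6.41% and 6.16% in those with Cntn2 alone, and for 6.94% and 7.40% in those with Svep1 or Grm4 alone. Zic4 differed in 1 of these states, the Cntn2 nuclei, at 345 and 411 CPM (ratio 1.19, interval 1.04 to 1.36). In the nuclei with Svep1 or Grm4 alone it stood at 251 and 252 CPM.

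There were 173 dividing granule nuclei in control and 66 in cKO. Zic1 stood there at 410.1 CPM on 366 UMIs in control and at 649 CPM on 188 UMIs in cKO, a ratio of 1.58 (interval 1.32 to 1.89). Zic5 stood at 92.99 CPM on 83 UMIs and at 48.3 CPM on 14 UMIs, a ratio of 0.519 (interval 0.272 to 0.922). Among nuclei with Xist but no Y-linked UMIs the Zic5 ratio was 0.224, and its interval reached above 1 with a stricter gate (0.549, interval 0.239 to 1.12). Zic4, at 381 and 452 CPM, and Zic2, at 43.7 and 62.1 CPM, had intervals that spanned 1. Thus 1 of the 4 members passed 1.5-fold upwards and 1 downwards, in a comparison where 12.4% of 8559 genes passed upwards and 18.1% downwards, and where intervals lay above 1 for 7.44% and below 1 for 7.30%.

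In astroglia Zic4 was lower in the library labelled cKO. It went from 474 CPM in control to 371 CPM in cKO, at a ratio of 0.781 (interval 0.706 to 0.865). The lower level was found both with Gdf10 (ratio 0.795, interval 0.706 to 0.896) and without it (ratio 0.679, interval 0.556 to 0.83), and in nuclei of 2000 to 4000 UMIs (0.778) and of 4000 to 8000 UMIs (0.77). Zic1 went from 573 to 518 CPM (ratio 0.905, interval 0.828 to 0.99). Its interval spanned 1 within 4000 to 8000 UMIs (0.897, interval 0.791 to 1.02) and lay below 1 within 2000 to 4000 UMIs (0.798, interval 0.692 to 0.923). Zic5 went from 86.7 to 75.8 CPM with an interval spanning 1, but was lower in astroglia without Gdf10, at 73.6 CPM on 35 UMIs and 35.5 CPM on 30 UMIs (ratio 0.482, interval 0.286 to 0.808). Without Gdf10, 13 of 114 control and 59 of 237 cKO nuclei lay near the gate edge. The effect of this on the Zic4 and Zic5 ratios there was not tested. Over all astroglia, Zic2 was at 27.1 and 30.2 CPM. None of the 4 passed 1.5-fold over all astroglia, against 8.87% of 12847 genes upwards and 6.78% downwards. Intervals lay above 1 for 6.57% of these genes and below 1 for 6.45%, with 6.11% and 5.89% in nuclei with Gdf10 and 5.23% and 6.21% in those without it.

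In unipolar brush cells, excitatory interneurons that like granule cells arise from the rhombic lip, Zic1 went from 547 to 454 CPM (ratio 0.83, interval 0.723 to 0.951). The direction turned to 1.07 (interval 0.828 to 1.39) among nuclei with Y-linked but no Xist UMIs, and the interval reached above 1 with thinning (0.928) and a stricter gate (0.885). Zic4 was at 294 and 276.5 CPM and Zic2 at 42.4 and 43.5 CPM, with intervals spanning 1. Zic5 was at 58.6 CPM on 47 UMIs and 39 CPM on 35 UMIs, the 1 member of 4 past 1.5-fold, downwards, though its interval for the ratio (0.418 to 1.05) included 1. The background here was 11.1% of 9347 genes upwards and 9.52% downwards, with intervals above 1 for 6.89% and below 1 for 6.71%. In GABAergic interneurons Zic1 stood at 270.1 and 266 CPM (ratio 0.986, interval 0.883 to 1.1), and the intervals of the other 3 members spanned 1 as well. No member passed 1.5-fold there, against 5.79% of 13020 genes upwards and 6.32% downwards, with intervals above 1 for 4.08% and below 1 for 5.44%.

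In the classes with low levels, Zic1 was also lower in the library labelled cKO. It went from 79.4 to 48.2 CPM in Purkinje cells (ratio 0.607, interval 0.498 to 0.742), from 103.1 to 61.8 CPM in glutamatergic cerebellar nuclei neurons (ratio 0.599, interval 0.431 to 0.834), and from 142 to 104 CPM in microglia, where the interval spanned 1. Over 8 alternatives the Purkinje ratio of Zic1 ran from 0.559 to 0.818, so it reached beyond its counting interval. Near the gate edge lay 54 of 218 control and 106 of 630 cKO Purkinje nuclei. Intervals lay above 1 for 4.77% and below 1 for 6.49% of the genes tested in Purkinje cells, and for 5.27% and 5.71% in cerebellar nuclei neurons. Per nucleus, Zic1 went from 0.78 to 0.405 UMIs in Purkinje cells, from 1.0 to 0.539 in cerebellar nuclei neurons and from 0.509 to 0.314 in microglia. Zic4 went from 60.9 to 23.3 CPM in microglia on 12 and 11 UMIs. Droplets under 1000 UMIs, which were not assigned to a class, made up 20.9% of kept barcodes in control and 10.1% in cKO. They held the highest Zic1 levels of all groups with at least 50 barcodes, 902 CPM in control and 864 CPM in cKO, beside 0.682% and 0.819% mitochondrial UMIs against 0.301% and 0.224% in the granule lineage. The part of this RNA in the levels of the gated classes was not tested.

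The GLI and GLIS genes, relatives of the Zic genes by their zinc fingers, were read as a list of 6. In the granule lineage Gli1, Gli2 and Gli3, the effectors of Hedgehog signalling, had ratios of 0.383, 0.262 and 0.345 with intervals below 1. Glis1, Glis2 and Glis3 had intervals spanning 1. The mix of granule states differed between the libraries. Dividing nuclei were 173 of 1514 in control and 66 of 1609 in cKO, and those carrying Gli1, Gli2 or Atoh1 were 112 and 23. Ratios over the whole granule lineage hold both this mix and the level per nucleus, and the list was not read within states. Of all genes tested in that class, 19.3% had intervals below 1 and 9.76% above, and 11.8% were at least 1.5-fold lower. The median log2 ratio of the list was -0.68, against a member range of -0.12 (Zic5) to 0.26 (Zic1) among the Zic genes and a median of -0.07 over all genes tested in that class. In astroglia, of 5 with at least 20 UMIs, Glis3 was higher (1.24) and Gli2 lower (0.837), where intervals lay above 1 for 6.57% of all tested genes and below 1 for 6.45%. Gli1 and Gli2 were used to describe granule states but not to gate the lineage, so the number of nuclei in those states is not independent of them.

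Of 10 transcription factors of the granule lineage, 9 had at least 20 UMIs in granule nuclei. Neurod2 (1.17), Nfix (1.22) and Etv1 (1.33) had intervals above 1, as Zic1 did. Pax6 (0.883), Meis1 (0.85), Nfib (0.868), Nfia (0.66) and Barhl1 (0.368) had intervals below 1, and Neurod1 (0.946) spanned 1. Atoh1, the determinant of granule progenitors, had 19 UMIs in control granule nuclei and 0 in cKO ones. Pax6, Neurod1, Etv1 and Barhl1 are gate markers, so their values in the class are partly set by the gate. The mix of granule states in the class also differed between the libraries. Thus 3 of 9 had intervals above 1 and 5 below, beside 9.76% and 19.3% of all genes tested in the class, and the median log2 ratio of the list was -0.18 beside -0.07.

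Genes next to the Zic loci were read in the same classes, 2 on each side. Beside Zic1 and Zic4, the noncoding gene Gm29478 begins 15125 bases beyond Zic4 and Gm28652 ends 17179 bases beyond Zic1. In astroglia Gm29478 went from 1117 to 829 CPM (ratio 0.742, interval 0.694 to 0.793) and Gm28652 from 128 to 90.6 CPM (ratio 0.709, interval 0.581 to 0.868), the same direction as Zic4 (0.781) and Zic1 (0.905). Intervals lay below 1 for 6.45% of all genes tested in astroglia. In the granule lineage Gm29478 (1.08) and Gm28652 (0.966) had intervals spanning 1, as Zic4 did, while that of Zic1 lay above 1. The farther neighbours on chromosome 9 were Gm31409, with a granule ratio of 1.1 whose interval spanned 1, and Gm29408, with 0 UMIs in both libraries. Beside Zic5 and Zic2, the nearer gene named Gm5089 had a granule ratio of 0.723 (interval 0.665 to 0.787). The farther one had 0.874 (interval 0.836 to 0.914). 2610035F20Rik, which lies between Zic5 and Zic2, had 0.75 (interval 0.62 to 0.905). Intervals lay below 1 for 19.3% of all genes tested in the granule lineage, while those of Zic2 and Zic5 spanned 1. Gm10837, at 1.71 (24 and 38 UMIs), and Pcca, at 1.02, had intervals spanning 1. In astroglia the nearer Gm5089 was at 0.975 (interval 0.876 to 1.085), the farther at 0.894 (0.833 to 0.959) and Pcca at 1.26 (1.08 to 1.48). There 2610035F20Rik and Gm10837 had intervals spanning 1.

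**Figure D5:**
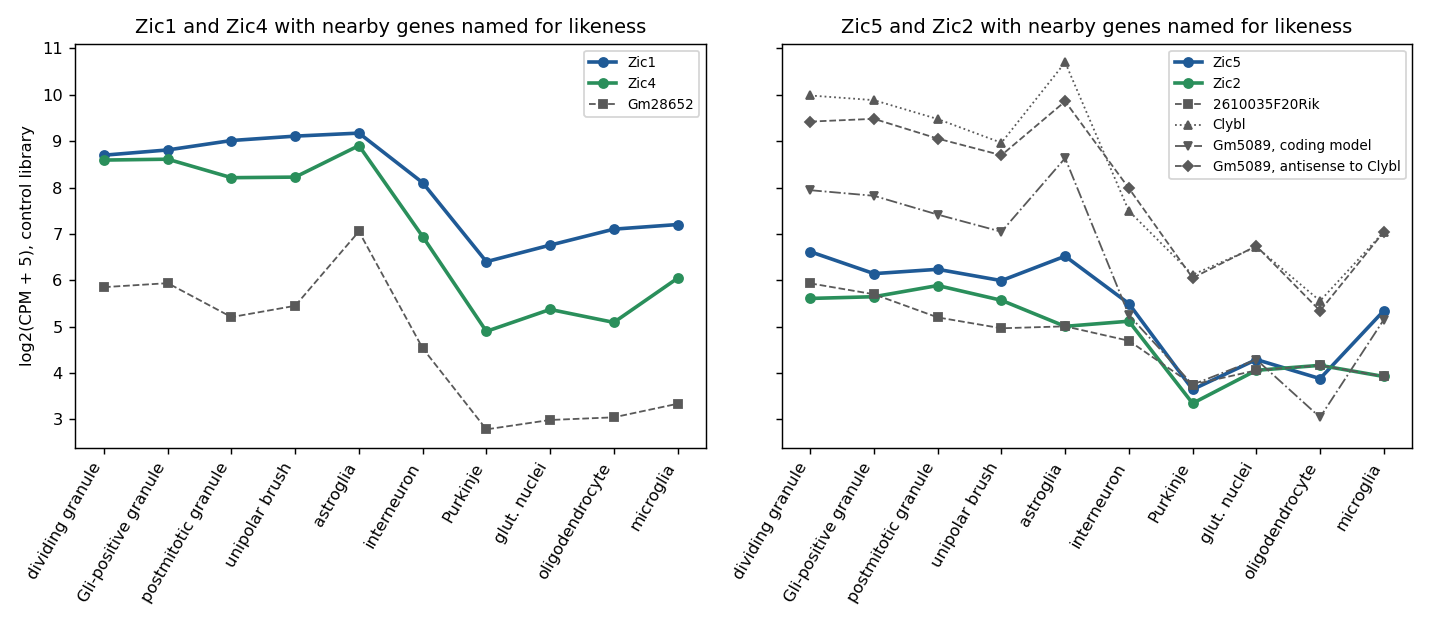
Level in the control library, as log2(CPM + 5), over 10 marker-gated classes for Zic1 and Zic4 with Gm28652 (left) and for Zic5 and Zic2 with 4 nearby genes (right), among them both genes named Gm5089. Heights of different genes are not comparable as abundance, and the shapes are: Gm28652 and both Gm5089 genes peaked in astroglia, as Zic4 did, and 2610035F20Rik stood higher in granule nuclei than in astroglia, as Zic2 did. For 2610035F20Rik the counting intervals of the granule lineage (31.45 to 39.97 CPM) and astroglia (18.86 to 37.67 CPM) overlapped.

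Likeness of pattern was measured as Pearson's r of log2(CPM + 5) over 10 marker-gated classes of the control library, among 10587 genes outside the gate, as a description over points that share 1 library. Zic1 and Zic4 had r = 0.972 in control and 0.983 in cKO, and Zic2 and Zic5 had 0.863 and 0.897. Outside the family, the genes most like Zic1 were Egfros (0.96), Gm28652 (0.944) and Egfr (0.943), of which Egfros is annotated antisense within the span of Egfr, the epidermal growth factor receptor gene. Those most like Zic2 were E130102H24Rik (0.97), 2610035F20Rik (0.914) and Immp1l (0.912). The same 3 entries were most like both Zic4 and Zic5, namely the 2 genes named Gm5089 (0.98 and 0.98 with Zic4, 0.96 and 0.957 with Zic5) and Clybl (0.978 and 0.943). Both Gm5089 genes and Clybl lie on chromosome 14 beside Zic5, at 5679, 50051 and 54560 bases from that pair, and Gm28652 lies beside Zic1. In the library labelled cKO the values of these genes with their member ranged from 0.798 (Egfr with Zic1) to 0.97 (the nearer Gm5089 with Zic4).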

How the data were processed

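Nuclei of 12 pooled P1 cerebella per genotype gave 1 10x Genomics 3′ library each. According to the submitters' processing notes, reads were converted with bcl2fastq and counted with Cell Ranger 7.0.1 against mm10, and the deposited tables hold raw UMI counts per gene and nucleus, with no normalization by the authors. Whether intronic reads were included is not given in the sources used here. The study corrected free RNA with SoupX, which needs empty droplets that were not used here, so counts are uncorrected.

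Nuclei above 25% mitochondrial UMIs were removed (1 and 5), as were the highest Scrublet scores (scanpy 1.11.5) at 0.8% per 1000 barcodes (189 and 386). No minimum of genes was set. Nuclei of at least 1000 UMIs were assigned to classes from 14 marker lists, by at least 4 marker UMIs of 3 markers (2 for lists under 6 genes), 3 times the share expected at that depth, and 2 times the next class. Granule nuclei needed no other class, 3 UMIs of 2 markers and 0.75 of the expected share, and those with 3 UMIs of 2 mitotic genes were called dividing. Of the rest, those with 2 UMIs of Gli1, Gli2 or Atoh1 formed their own group, and all others were called postmitotic. The postmitotic class can therefore hold progenitors in which these genes were not seen. The gate's thresholds were set after the counts were seen. Median UMIs of a class's own markers ran from 6 (granule lineage) to 83.5 (Purkinje cells), and medians of other lists were 0 to 5.

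Levels are UMIs of a gene scaled to 1000000 UMIs of the class (CPM), with exact Poisson intervals, and ratios have conditional binomial intervals at 95%. Nuclei are not replicates, so no p-value is given and "differ" refers to counting error. Shares used nuclei thinned to 1000 UMIs, averaged over thinnings. The background was all genes with at least 20 UMIs. Scripts were tested on simulated counts. Members, their named relatives and neighbours followed a fixed rule (likeness needed at least 200 UMIs), and members and lists were chosen with earlier results of these data known. Ratios within depth ranges were added after seeing the data. Of 5 rows matching the family, 1 is not reported here. Alternatives covered doublets, gene minimum, gate, scaling, thinning, granule markers and nuclei with Xist or Y-linked UMIs. Tools were Python 3.11.15, NumPy 2.4.6 and SciPy 1.17.1.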

Additional observations from a re-analysis of the deposited data

Results flagged for a closer look

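Zic1 was flagged because its difference between the libraries had opposite directions in different classes. The ratio of cKO to control was 1.197 in the granule lineage, with an interval above 1, and 0.8295 in unipolar brush cells, 0.9049 in astroglia, 0.6072 in Purkinje cells and 0.5988 in glutamatergic cerebellar nuclei neurons, with intervals below 1. The ratio in unipolar brush cells turned to 1.07 among nuclei with Y-linked but no Xist UMIs. The ratio in Purkinje cells ran from 0.559 to 0.818 over 8 alternatives. In astroglia the interval spanned 1 within 4000 to 8000 UMIs (0.897, interval 0.791 to 1.02) and lay below 1 within 2000 to 4000 UMIs (0.798, interval 0.692 to 0.923). In CPM, Purkinje cells stood at 0.559 of the microglial Zic1 level in control (interval 0.373 to 0.866) and 0.465 in cKO (0.342 to 0.645). Cerebellar nuclei neurons stood at 0.726 (interval 0.463 to 1.17) and 0.596 (interval 0.414 to 0.866). Counted per nucleus, both classes were above microglia in both libraries. Microglial Zic1 went from 142 to 104 CPM, with an interval spanning 1. How much of these low levels is free RNA was not tested. With 1 library per genotype the difference between classes was not tested.

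Droplets under 1000 UMIs, which no class comparison used, held a higher Zic1 share of their UMIs than the granule lineage did, 1.819 times in control and 1.456 times in the library labelled cKO. Zic2 was 1.559 times higher in such droplets of the library labelled cKO. Their median depths were 611 and 566 UMIs, and Malat1, a nuclear RNA, stood at 15947 and 18875 CPM in them against 34214 and 32865 CPM in granule nuclei.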

How the results depend on the processing

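Among the ratios of cKO to control recomputed for the 4 members under alternatives, 216 moved by less than counting error, 11 moved further and 1 reversed. Thinning to 1000 UMIs brought the ratios over kept nuclei to 0.9125 for Zic1 and 0.8047 for Zic4. It also left out the droplets under 1000 UMIs and gave every nucleus the same weight, so these shifts are not from depth alone. In the granule lineage the Zic1 ratio was 1.26 with median-of-ratios scaling and 1.114 among nuclei that had Y-linked but no Xist UMIs, and it lay between 1.114 and 1.26 over 9 alternatives. The Zic1 ratio in unipolar brush cells reversed to 1.074 in nuclei with Y-linked UMIs alone and was 0.69 in nuclei with Xist alone. The cause was not tested. Zic4 in astroglia ranged from 0.739 to 0.813 over 8 alternatives. Of the class orders, 31 were within counting error and 1 moved (Zic4 in granule lineage over astroglia, 0.712 with a looser gate), and the 8 shares that moved did so without thinning.

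Counts of genes past the fold depended on the threshold. Over all kept nuclei, 1443 genes were at least 1.5-fold higher in cKO and 1569 lower, against 624 and 750 among genes with at least 100 UMIs and 414 and 503 past 2-fold. In the granule lineage the counts were 790 and 1870, against 298 and 768, and 191 and 743.

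No paired analysis was possible because each genotype was 1 pooled library. Counting intervals leave out variation between animals, dissections and library preparations, so a ratio outside its interval still describes 2 libraries. Zic2 and Zic5 rested on few UMIs outside the granule lineage, and differences there were mostly not detectable at this depth.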

Other observations

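Nuclei left unassigned by the gate held all 4 members at levels between those of the granule lineage and Purkinje cells. In them Zic1 was at 331.5 CPM for control and 281 CPM for cKO, and Zic4 at 197 and 143 CPM. In 6 control and 16 cKO nuclei with fibroblast and mural markers, cells of the meninges and vessel walls, Zic1 stood at 720.4 CPM on 20 UMIs and at 409 CPM on 36 UMIs. The single nucleus of the choroid plexus and ependyma class, in the library labelled cKO, held 8 Zic1 UMIs and 0 Zic5 UMIs.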
